A study of Mus musculus with 12 samples.

Results

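Genes of intestinal bile acid uptake and of the bile acid receptor FXR were examined in the proximal jejunum of mice with and without methotrexate. The set holds 7 genes, chosen by name as those whose probe sets the platform annotation pairs with exactly 1 of the symbols Slc10a2, Fabp6, Slc51a, Slc51b, Nr1h4, Nr0b2 and Fgf15. All 7 were measured, each by 1 probe set, among 18820 genes with a probe set of 1 symbol. The study concerned mucositis, damage that chemotherapy does to the lining of the gut, in mice lacking TLR2, a receptor for bacterial lipoproteins, and in wild-type mice. Methotrexate is an antifolate drug that blocks DNA synthesis. Each of 12 mice gave 1 Affymetrix array, and there were 4 groups of 3 mice. Knockout mice (labelled B6.129-Tlr2tm1Kir/J) received methotrexate intraperitoneally at 40 mg per kg body weight per day for 4 days, and jejunum was taken on day 7. Wild-type mice (labelled C57BL6/J) received the same course. Untreated knockout mice and untreated wild-type mice of the same labelled strains had no drug, and no vehicle injection is described for them. The Tlr2 change is carried by the whole animal, and Tlr2 signal does not check these labels, because it is not known here whether its probes lie in the deleted stretch.

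Bile acids are made from cholesterol in the liver, act as detergents for fat in the upper gut and are recovered mainly in the ileum. There the apical sodium-dependent transporter encoded by Slc10a2 takes them into the enterocyte, the cytosolic binding protein encoded by Fabp6 carries them, and OST alpha-OST beta, a heterodimer encoded by Slc51a and Slc51b, exports them across the basolateral membrane. Inside the cell they activate FXR (Nr1h4), a nuclear receptor that pairs with RXR. FXR induces Slc51a, Slc51b, Fabp6, the co-repressor SHP (Nr0b2) and the hormone Fgf15, which travels to the liver and lowers bile acid synthesis through the receptor FGFR4 and its co-receptor beta-Klotho. In mice the factor GATA4 keeps the ileal genes of this system low in the jejunum.

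The promoters of Slc51a, Slc51b and Nr1h4 are shown because these are the 3 members that fell in treated knockout mice. Each sequence is the 250 bases before the gene's start, 5′ to 3′ on the gene's strand, from RefSeq on build GRCm38.p6. Capitals mark AGGTCA, the core hexamer of sites to which FXR, RXR and many other nuclear receptors bind, or its reverse complement TGACCT.
Slc51a, chr16:32487880-32488129, minus strand: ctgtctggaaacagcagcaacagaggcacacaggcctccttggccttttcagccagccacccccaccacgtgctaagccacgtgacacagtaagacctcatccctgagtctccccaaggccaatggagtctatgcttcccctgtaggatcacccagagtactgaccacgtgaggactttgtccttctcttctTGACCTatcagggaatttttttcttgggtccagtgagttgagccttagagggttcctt
Slc51b, chr9:65422774-65423023, minus strand: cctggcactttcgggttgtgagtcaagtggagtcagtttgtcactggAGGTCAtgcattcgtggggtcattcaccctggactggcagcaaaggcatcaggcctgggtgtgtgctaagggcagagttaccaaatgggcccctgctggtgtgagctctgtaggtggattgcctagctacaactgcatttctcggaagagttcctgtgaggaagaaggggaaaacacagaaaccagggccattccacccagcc
Nr1h4, chr10:89506659-89506908, minus strand: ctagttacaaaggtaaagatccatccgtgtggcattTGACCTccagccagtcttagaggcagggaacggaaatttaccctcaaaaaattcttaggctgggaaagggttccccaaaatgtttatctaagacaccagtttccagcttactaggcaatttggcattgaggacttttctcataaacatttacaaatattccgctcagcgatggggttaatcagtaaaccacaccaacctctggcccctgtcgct

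Slc51a held TGACCT from 58 to 53 bases before its start, Slc51b held AGGTCA from 203 to 198 bases before its start, and Nr1h4 held TGACCT from 214 to 209 bases before its start. The hexamer was searched as an exact match on both strands, and 14.0% of 32851 promoter windows of the same length held it. Searches for longer inverted-repeat motifs, with up to 2 mismatches, were run first and dropped, because the sources used hold no full FXR element. Windows were matched for 6 of the 7 members, and Fgf15 was not matched. The windows of Slc10a2, Fabp6 and Nr0b2 held no exact match, which says only that these letters are not in those windows. With 3 of 6 matched members holding the hexamer, the windows are too few for a result about the set. Any link between the hexamer and the fall of Slc51a, Slc51b and Nr1h4 was not tested.

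Signals are log2 values made by the authors with RMA, so a difference of 1 is a 2-fold difference in signal. Array medians lay between 4.37 and 4.56. Replicate arrays correlated at 0.967 to 0.992 over all probe sets, and the correlation between a treated knockout array and an array of another group was 0.916 to 0.948. RNA of the exocrine pancreas was present on 7 of the 12 arrays, where 10 acinar genes averaged over 8 on the log2 scale. These were 2 of 3 arrays in the treated knockout, 1 of 3 in the treated wild type, 2 of 3 in the untreated knockout and 2 of 3 in the untreated wild type. The acinar mean ran from 12.07 to 12.61 on these arrays and from 3.95 to 5.42 on the other 5. Those 5 are called arrays without pancreatic RNA, which means a mean not over 8 and does not exclude a lower amount. Clps, 1 of the 10 acinar genes, read at least 11.4 on every untreated knockout array. In whole tissue, fewer cells of a type and less RNA per cell cannot be told apart.

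The exporter genes Slc51a and Slc51b fell strongly in knockout mice after methotrexate, by 16.1-fold and 19.4-fold in the means of 3 arrays, and neither passed the test in wild-type mice. The receptor gene Nr1h4 fell by a smaller amount in knockout mice, 1.39-fold. The uptake gene Slc10a2, the carrier gene Fabp6 and the hormone gene Fgf15 were near the bottom of the signal range in all 4 groups and did not pass in any comparison. Nr0b2 was lower on average in treated knockout mice but did not pass there, and its level moved with pancreatic RNA. Of the 7 members 3 thus fell and 0 rose in knockout mice after methotrexate (limma, adjusted p under 0.05), where 34.8% of all genes tested were called. The median change over the members was -0.48 on the log2 scale, against -0.02 over all genes. A share of 3 in 7 against that background is no result about the set as a whole, while the sizes for both exporter genes lie far out among all genes.

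**Figure D1:**
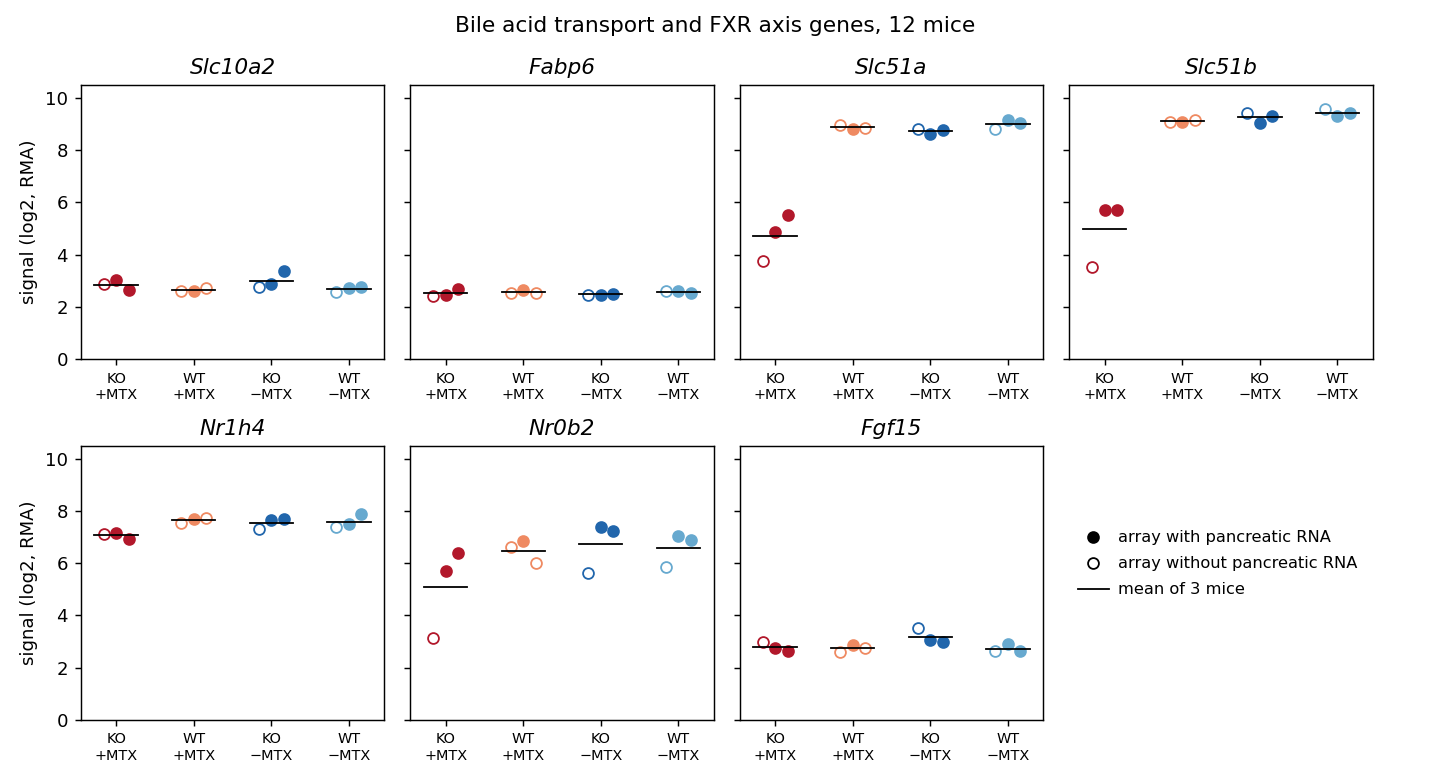
Signal of the 7 genes (log2, RMA) on each of 12 arrays, with 1 point per mouse, a line at the mean of 3 mice and open points for arrays without pancreatic RNA. Slc51a and Slc51b of treated knockout mice lie between 3.53 and 5.72 while the other 3 groups lie between 8.62 and 9.59, and Slc10a2, Fabp6 and Fgf15 stay between 2.42 and 3.53 on all arrays.

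Slc10a2, the apical uptake transporter, had signals of 2.87, 3.02 and 2.66 in treated knockout mice and 2.61, 2.59 and 2.71 in treated wild-type mice. They were 2.75, 2.87 and 3.36 in untreated knockout mice and 2.56, 2.71 and 2.76 in untreated wild-type mice. The values of treated and untreated mice overlapped in both genotypes, and the highest array was replicate 3 of the untreated knockout. The mean signal of this probe set lay at percentile 16 of all genes. Methotrexate changed it by -0.14 ± 0.15 in knockout mice (SE, 95% interval -0.48 to 0.19, adjusted p = 0.528 with limma) and by -0.04 ± 0.15 in wild-type mice (-0.38 to 0.30, adjusted p = 0.928). The intervals describe the signal only.

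Fabp6, the ileal bile acid-binding protein, was the most even of the set. Its signals were 2.42, 2.46 and 2.67 in treated knockout mice, 2.54, 2.66 and 2.53 in treated wild-type mice, 2.46, 2.46 and 2.5 in untreated knockout mice and 2.61, 2.59 and 2.52 in untreated wild-type mice. All 12 arrays thus lay within 0.25 of each other, and the mean was at percentile 9.76 of all genes. The change after methotrexate was 0.04 ± 0.09 in knockout mice (95% interval -0.16 to 0.25, adjusted p = 0.772) and 0.00 ± 0.09 in wild-type mice (-0.20 to 0.21, adjusted p = 0.995). Slc10a2 and Fabp6 define ileal enterocytes, and both were low in this tissue, labelled proximal jejunum.

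Slc51a encodes OST alpha, the larger subunit of the basolateral exporter. Its signals were 3.76, 4.86 and 5.52 in treated knockout mice, 8.95, 8.83 and 8.85 in treated wild-type mice, 8.80, 8.62 and 8.77 in untreated knockout mice and 8.83, 9.16 and 9.03 in untreated wild-type mice. The 3 treated knockout arrays lay below all 9 others with no overlap, and replicate 1 was the lowest. The gene fell by 4.01 ± 0.32 in knockout mice after methotrexate (adjusted p = 2.76e-06), to 4.71 ± 0.89, against 8.73 ± 0.10 in untreated knockout mice (SD, n = 3 each). Among 18820 genes this was rank 105 from the most negative change. In wild-type mice the change was -0.13 ± 0.32 (95% interval -0.84 to 0.59, adjusted p = 0.891).

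Slc51b encodes OST beta, the partner that OST alpha needs to reach the membrane. It had signals of 3.53, 5.72 and 5.72 in treated knockout mice, 9.09, 9.09 and 9.14 in treated wild-type mice, 9.42, 9.05 and 9.31 in untreated knockout mice and 9.59, 9.30 and 9.44 in untreated wild-type mice. As with Slc51a, the treated knockout arrays were below all others and replicate 1 was the lowest. Slc51b fell by 4.27 ± 0.45 in knockout mice (adjusted p = 2.03e-05), to 4.99 ± 1.26, against 9.26 ± 0.19 in untreated knockout mice (SD, n = 3 each), which was rank 87 from the most negative change. The wild-type change was -0.34 ± 0.45 (95% interval -1.33 to 0.65, adjusted p = 0.775). The treated and untreated wild-type arrays did not overlap, but the share of all genes without overlap was not counted. Over the 12 arrays the signal spanned 5.39 log2 units for Slc51a and 6.06 for Slc51b. Without replicate 1 of the treated knockout the knockout change was -3.54 for Slc51a (adjusted p = 1.64e-07) and -3.55 for Slc51b (adjusted p = 2.15e-08), so the fold for Slc51b depends on that array by more than 1.5 times.

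Both exporter genes also passed in the comparison of genotypes after methotrexate, in which 36.9% of genes were called. In treated knockout mice Slc51a was 17.9-fold lower than in treated wild-type mice (log2 difference -4.16 ± 0.32, adjusted p = 1.70e-06) and Slc51b was 17.4-fold lower (-4.12 ± 0.45, adjusted p = 2.26e-05). The interaction, that is the knockout change after methotrexate less the wild-type change, was -3.88 ± 0.46 for Slc51a (adjusted p = 9.96e-05) and -3.94 ± 0.64 for Slc51b (adjusted p = 0.000849). These were the 2 members called in the interaction, where 23.8% of all genes were called. Within the 7 arrays with pancreatic RNA alone, the change in knockout mice was -3.50 for Slc51a and -3.47 for Slc51b. In the 5 arrays without it, which hold 1 treated and 1 untreated knockout, the values were -5.04 and -5.89 in the same order.

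**Figure D2:**
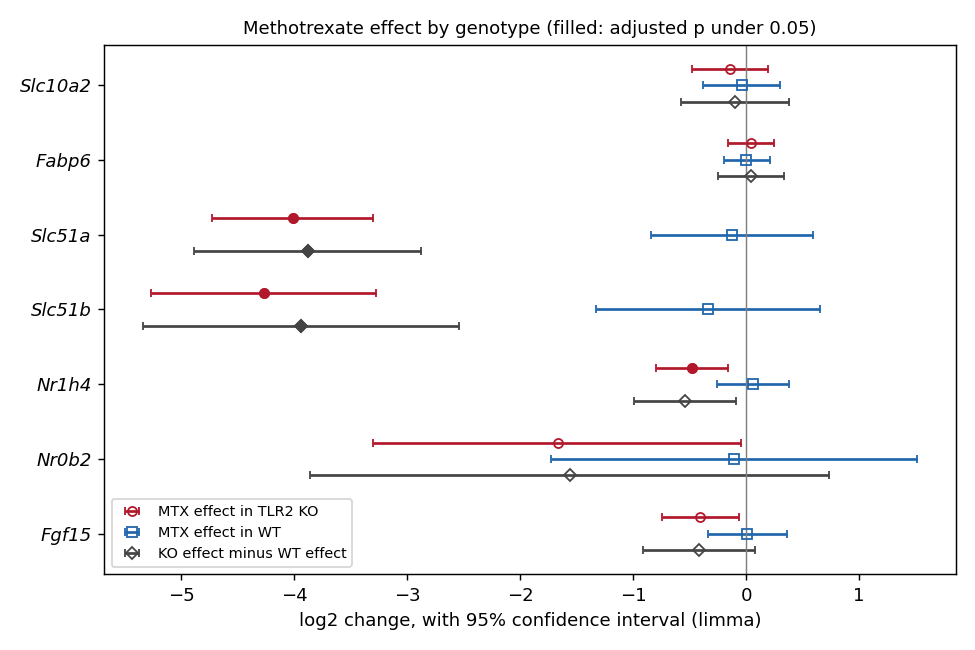
Log2 change after methotrexate in TLR2 knockout mice, in wild-type mice and the difference of these effects for the 7 genes, with 95% confidence intervals from limma (12 arrays) and filled symbols for adjusted p under 0.05. The 4 knockout and interaction values of Slc51a and Slc51b lie between -4.27 and -3.88, and all 7 wild-type intervals include 0.

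Genes of absorptive enterocytes moved with both exporter genes. The mean of 11 enterocyte genes was 6.38, 7.71 and 8.75 on the treated knockout arrays, against 11.12 to 11.53 on the arrays of the other 3 groups. All 11 fell in knockout mice with a median change of -3.43, as did all 16 markers of proximal enterocytes (median -3.82) and 12 of 15 markers of distal enterocytes (median -3.48). For this and the counts below, 34.8% of all genes were called, and the median over all genes was -0.02. Replicate 1 of the treated knockout was lowest for the enterocyte mean as it was for Slc51a and Slc51b. Among general epithelial genes 7 of 10 were lower and 1 higher, with a median of -0.61, among them Epcam at -0.95 ± 0.20 and Krt18 at 1.28 ± 0.23. These 8 calls became 4 without replicate 2 of the treated knockout or replicate 1 of the untreated knockout, 5 when replicate 3 of either group was left out, and 3 in a fit on the knockout arrays alone. Genes of stromal and immune cells had 9 of 10 higher, with a median of 1.80 and array means of 9.03 to 9.14 in treated knockout mice against 7.27 to 7.59 in the other groups. The part of these shifts in the exporter result was not tested.

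**Figure D3:**
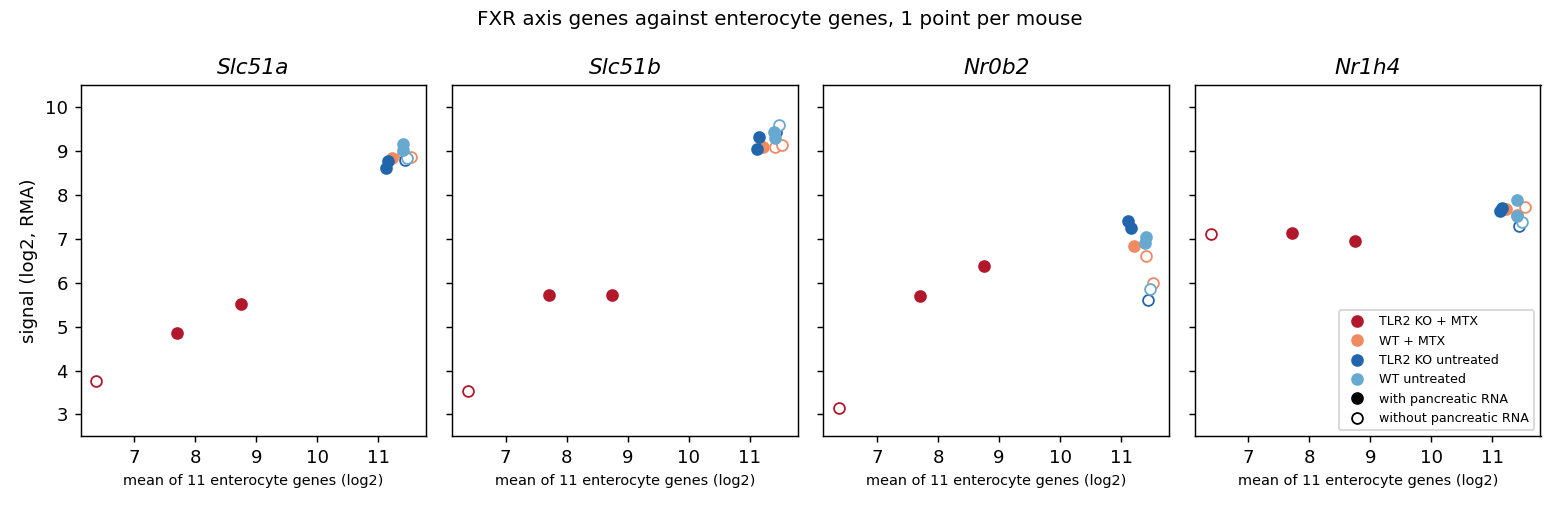
Signal of Slc51a, Slc51b, Nr0b2 and Nr1h4 (log2, RMA) against the mean signal of 11 enterocyte genes, with 1 point per mouse coloured by group and open where the array held no pancreatic RNA. Treated knockout mice lie at enterocyte means of 6.38 to 8.75 and the other 9 mice at 11.12 to 11.53, and Nr1h4 spans only 6.94 to 7.87 over the whole range.

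Nr1h4, which encodes FXR itself, changed far less than the exporter genes. Its signals were 7.11, 7.14 and 6.94 in treated knockout mice, 7.55, 7.68 and 7.72 in treated wild-type mice, 7.29, 7.64 and 7.70 in untreated knockout mice and 7.39, 7.51 and 7.87 in untreated wild-type mice. The treated knockout arrays were below all 9 others, by as little as 0.15. In knockout mice the gene fell by 0.48 ± 0.15 after methotrexate (adjusted p = 0.0235), to 7.06 ± 0.11, against 7.54 ± 0.22 in untreated knockout mice (SD, n = 3 each). This call was lost without replicate 2 (adjusted p = 0.0818) or 3 (0.0897) of the untreated knockout and without replicate 3 of the treated knockout (0.0771). In the 7 arrays with pancreatic RNA the change was -0.63 (adjusted p = 0.00987), while in the 5 arrays without it, a fit with 1 residual degree of freedom, it was -0.18 (adjusted p = 0.582). In treated knockout mice it was 1.5-fold lower than in treated wild-type mice (log2 difference -0.59 ± 0.15, adjusted p = 0.00741), a call that the 5 arrays without pancreatic RNA did not give (-0.52, adjusted p = 0.0546). The interaction of -0.54 ± 0.21 did not pass (adjusted p = 0.0834), so the knockout and wild-type effects on Nr1h4 are not shown to differ. With pancreatic RNA as a block that interaction was -0.59 and passed (adjusted p = 0.0449), as it did with array weights (-0.61, adjusted p = 0.00790) and when replicate 1 of the untreated knockout (-0.67, adjusted p = 0.0305) or replicate 3 of the untreated wild type (-0.68, adjusted p = 0.0254) was left out.

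Nr0b2 encodes SHP, a nuclear receptor without a DNA-binding domain that represses other receptors. It varied most among the members outside the treated knockout. Its signals were 3.15, 5.69 and 6.39 in treated knockout mice, 6.61, 6.84 and 5.99 in treated wild-type mice, 5.61, 7.40 and 7.24 in untreated knockout mice and 5.85, 7.03 and 6.90 in untreated wild-type mice. In 4 of 4 groups every array with pancreatic RNA read higher than every array without it. With the group as a term, arrays with pancreatic RNA were higher by 1.56 ± 0.30 (adjusted p = 0.0212), in a comparison that called 2.65% of all genes and 1 of the 7 members. That call was lost without replicate 1 of the untreated wild type (adjusted p = 0.0567) or without replicate 1 (0.107), 2 (0.0555) or 3 (0.0501) of the untreated knockout. The mean of 15 distal enterocyte markers was lower on arrays with pancreatic RNA in each group but the treated knockout. It was 8.22 and 8.21 against 9.54 in the untreated knockout, and in the treated knockout it was higher (5.13 and 5.73 against 4.88). Pancreatic RNA and other differences between these arrays thus cannot be told apart.

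The change of Nr0b2 in knockout mice was -1.67 ± 0.74 (95% interval -3.30 to -0.05), which did not pass (adjusted p = 0.107). With pancreatic RNA as a block the change of -1.67 passed (adjusted p = 0.00647), as did the change of -1.52 with array weights (adjusted p = 0.011). The change also passed with the replicate number as a block (adjusted p = 0.0340). In knockout mice, however, both arrays numbered 1 lacked pancreatic RNA and those numbered 2 and 3 held it, so the 2 blocks are not separate support. The change was -0.71 without replicate 1 of the treated knockout (adjusted p = 0.359) and passed without replicate 3 of the treated knockout (-2.33, adjusted p = 0.0324) or replicate 1 of the untreated knockout (-2.24, adjusted p = 0.0447). Arrays with pancreatic RNA averaged 6.04 in treated and 7.32 in untreated knockout mice (n = 2 each), and the array without it read 3.15 in treated and 5.61 in untreated knockout mice. The difference was thus negative in both kinds of array, and larger in the kind that holds 1 mouse per group. Between treated genotypes Nr0b2 differed by -1.40 ± 0.74 (adjusted p = 0.174), and passed with pancreatic RNA as a block (-1.92, adjusted p = 0.00316). In wild-type mice the change was -0.11 ± 0.74 (adjusted p = 0.966), and the interaction of -1.56 ± 1.04 passed only in fits that took pancreatic RNA into account, with an adjusted p of 0.0203 as a block.

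Fgf15, the enterocyte hormone that signals to the liver, was low in every group. Its signals were 2.98, 2.74 and 2.64 in treated knockout mice, 2.59, 2.87 and 2.75 in treated wild-type mice, 3.53, 3.06 and 2.98 in untreated knockout mice and 2.64, 2.91 and 2.63 in untreated wild-type mice. The untreated knockout arrays were the 3 highest apart from a tie with replicate 1 of the treated knockout to within rounding. The mean lay at percentile 17.7 of all genes. Methotrexate changed it by -0.41 ± 0.16 in knockout mice (95% interval -0.75 to -0.06, adjusted p = 0.0698) and by 0.01 ± 0.16 in wild-type mice (-0.34 to 0.36, adjusted p = 0.986). The knockout change was -0.24 without replicate 1 of the untreated knockout, the highest array, and passed without replicate 1 of the treated knockout (-0.50, adjusted p = 0.0405) or replicate 3 of the untreated knockout (-0.51, adjusted p = 0.0459). Untreated knockout mice exceeded untreated wild-type mice by 0.46 ± 0.16, with an adjusted p of 0.786.

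In untreated knockout against untreated wild-type mice 0 of 7 members passed limma's test, where 0.0106% of all genes were called and 6.19% had an unadjusted p under 0.05. Slc51a differed by -0.28 ± 0.32 (95% interval -0.99 to 0.44), Slc51b by -0.18 ± 0.45 (-1.17 to 0.81) and Nr1h4 by -0.04 ± 0.15 (-0.36 to 0.27). The intervals of Slc51a and Slc51b use a spread shared by the 4 groups, with SDs of 0.89 and 1.26 in treated knockout mice. Among untreated mice the SDs were 0.10 (knockout) and 0.16 (wild type) for Slc51a, and 0.19 and 0.15 for Slc51b. The untreated knockout and untreated wild-type arrays did not overlap for Slc51a and Fabp6, which were lower in the knockout, nor for Fgf15, which was higher. The share of all genes without overlap was not counted, so this is no result about the members. Fabp6 and Fgf15 were also near the bottom of the signal range. The difference of Fgf15 had a 95% interval of 0.12 to 0.81 and an unadjusted p of 0.0135 in limma's fit, and that of Fabp6 was -0.10 ± 0.09 (-0.30 to 0.11). In wild-type mice methotrexate also gave 0 of 7 calls, against 0.0744% of all genes called and 11.7% with an unadjusted p under 0.05. The 95% interval for Slc51b there reached down to -1.33. Its width also rests on the spread shared with treated knockout mice (SD 1.26). The SDs were 0.03 in treated and 0.15 in untreated wild-type mice, so the interval is no measure of the spread in wild-type mice alone.

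The genes most like each member over the 12 arrays, by Pearson correlation, give a description of the pattern. For Slc51a they were Khk (0.998), Slc2a2 (0.998) and Smim24 (0.997), and for Slc51b they were Sult1d1 (0.996), Slc6a19 (0.994) and Adh6a (0.994). Khk encodes ketohexokinase, Slc2a2 the glucose and fructose transporter GLUT2, and Slc6a19 a brush border transporter of neutral amino acids. The arrays fall into 2 clusters, treated knockout and the rest, and these correlations describe mainly that split. Nr0b2 was most like Akp3 (0.946), Blvrb (0.941) and Smpdl3a (0.927), and Nr1h4 was most like Gkn3 (0.945), Chac2 (0.939) and Tm7sf3 (0.937). The best values for the faint members were lower for Fabp6 (0.807 with Fyb2) and Fgf15 (0.860 with Plek2), and 0.920 for Slc10a2 with Olfr482, an olfactory receptor gene.

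Of 9 other transporters of bile acids and sterols measured, 3 fell, 1 rose and 5 did not pass in knockout mice after methotrexate, a share near the 34.8% of all genes called. Their median was -0.43, against -0.02 over all genes, and in wild-type mice 0 passed. The apical pump gene Abcc2 had signals of 6.21, 7.13 and 8.22 in treated knockout mice, against 10.20, 10.64 and 10.91 in untreated knockout mice, and fell by 3.40 ± 0.38 (adjusted p = 3.21e-05). Abcg5 and Abcg8, whose products form the sterol exporter, fell by 3.76 ± 0.58 and 3.71 ± 0.58. The basolateral pump gene Abcc4 went the other way, with signals of 8.29, 8.24 and 7.87 in treated knockout mice against 5.84, 5.55 and 5.59 in untreated knockout mice. It rose by 2.47 ± 0.19 (adjusted p = 1.99e-06), or 5.54-fold, and the groups did not overlap. Abcc3, another basolateral pump gene, changed by -0.43 ± 0.33 and did not pass (adjusted p = 0.358).

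Among bile acid sensors and the factors that regulate the ileal genes, 7 of 10 measured fell, 1 rose and 2 did not pass in knockout mice. In that comparison 34.8% of all genes were called. The median of the list was -1.39, against -0.02 over all genes. Vdr, the vitamin D receptor that also senses lithocholic acid, had signals of 6.45, 7.56 and 7.71 in treated knockout mice against 10.52, 10.70 and 10.67 in untreated knockout mice, a fall of 3.39 ± 0.27. Nr1i2, which encodes the xenobiotic and bile acid sensor PXR, fell by 2.33 ± 0.16. Gata4 had signals of 7.90, 7.56 and 8.25 in treated knockout mice, against 9.36, 9.53 and 9.79 in untreated knockout mice, and fell by 1.66 ± 0.18 (adjusted p = 2.66e-05). Its relative Gata6 fell by 1.67 ± 0.12 and the enterocyte factor gene Hnf4a by 1.44 ± 0.21. The ileal genes Slc10a2 and Fabp6, given above, did not pass on the same arrays. Both lay near the bottom of the signal range, and any link to the fall of Gata4 was not tested. Rxra, the partner of FXR, fell by 0.83 ± 0.18 (adjusted p = 0.00317), and Nr5a2, which encodes LRH-1, changed by -1.31 ± 0.53 without passing (adjusted p = 0.0760). The membrane bile acid receptor gene Gpbar1 rose by 0.78 ± 0.18 (adjusted p = 0.00550), with signals of 4.48, 5.03 and 5.24 in treated knockout mice against 4.17, 4.23 and 4.01 in untreated knockout mice. In the 5 arrays without pancreatic RNA its change was 0.31 and did not pass (adjusted p = 0.349).

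The receptor for FGF15 was measured through both its parts. Fgfr4 had signals of 7.64, 7.55 and 7.36 in treated knockout mice, 4.96, 5.55 and 4.61 in treated wild-type mice, 5.04, 4.81 and 5.11 in untreated knockout mice and 4.67, 4.91 and 4.94 in untreated wild-type mice. The treated knockout arrays were above all 9 others, and Fgfr4 rose by 2.53 ± 0.20 in knockout mice (adjusted p = 2.38e-06), or 5.79-fold. Klb, the co-receptor gene, had signals of 2.96, 4.97 and 5.87 in treated knockout mice against 4.16, 6.69 and 7.06 in untreated knockout mice. It changed by -1.37 ± 0.84 in knockout mice (adjusted p = 0.25). Like Nr0b2, Klb was higher on every array with pancreatic RNA than on those without it in 4 of 4 groups, a comparison chosen after its values were seen.

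Genes of bile acid synthesis and conjugation, most of whose work is done in the liver, had 4 of 11 lower, 1 higher and 6 not passing in knockout mice, also near the 34.8% of all genes called, with a median of -0.35. Cyp7b1, which encodes oxysterol 7-alpha-hydroxylase, rose by 2.06 ± 0.19 (adjusted p = 6.04e-06), with signals of 6.98, 6.35 and 6.19 in treated knockout mice against 4.38, 4.41 and 4.54 in untreated knockout mice. Amacr, a racemase of peroxisomal side-chain shortening, fell by 1.51 ± 0.09 and Scp2, the sterol carrier and thiolase gene, by 1.38 ± 0.19. Cyp27a1, a mitochondrial sterol hydroxylase, fell by 1.11 ± 0.36 (adjusted p = 0.0340). It no longer passed when replicate 1 of either the treated knockout (-0.77, adjusted p = 0.118) or the untreated knockout (-0.76, adjusted p = 0.121) was left out, nor in a fit on the knockout arrays alone (adjusted p = 0.0789). Of 5 further genes reported as intestinal FXR targets, 2 rose, 1 fell and 2 did not pass, where 34.8% of all genes were called. Sdc1 (syndecan-1) rose by 1.34 ± 0.14 and Car12 (a carbonic anhydrase) by 1.89 ± 0.33, while the cytokine gene Il18 fell by 2.68 ± 0.24 (adjusted p = 5.61e-06), with signals of 5.36, 4.77 and 5.28 in treated knockout mice against 7.40, 7.89 and 8.15 in untreated knockout mice.

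**Figure D4:**
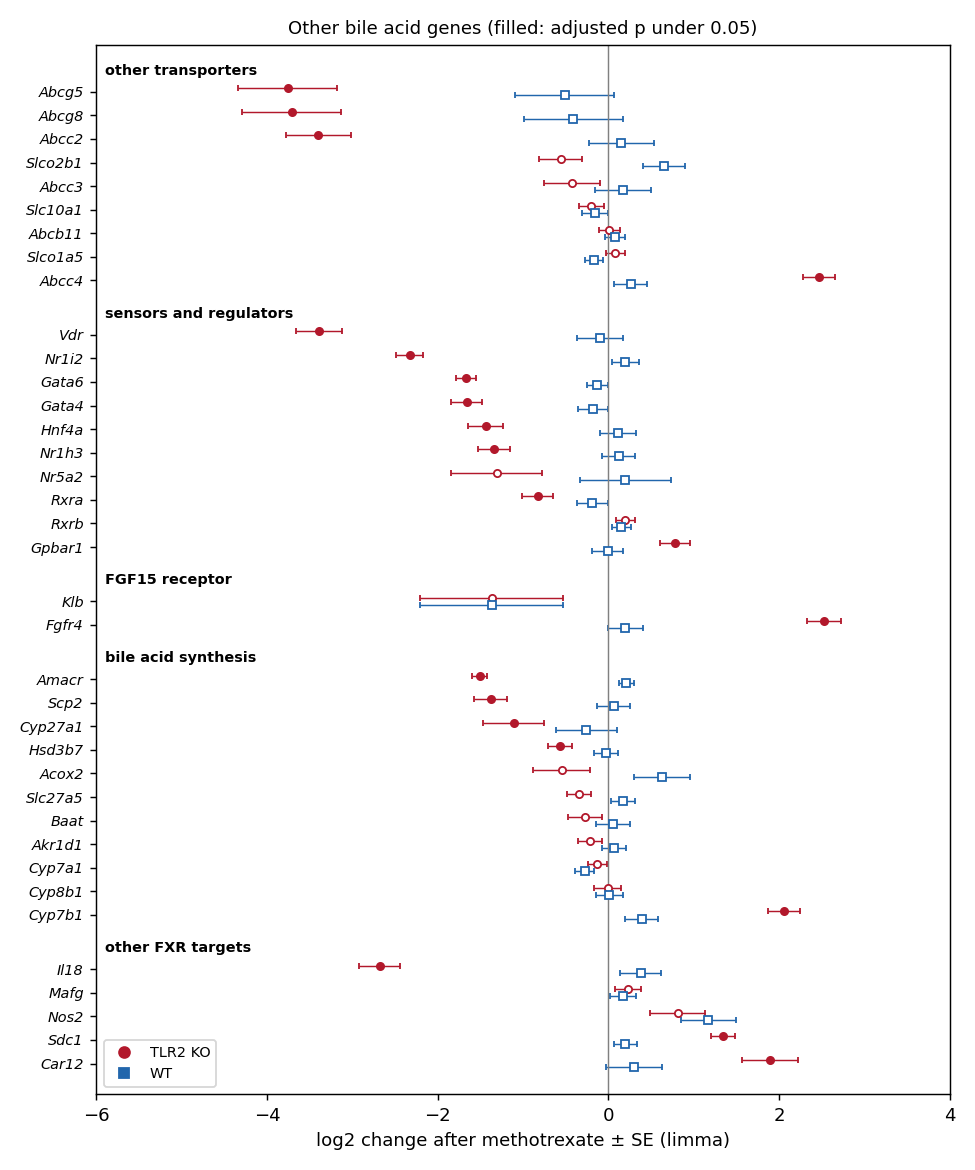
Log2 change after methotrexate ± SE (limma) for 37 other bile acid genes in 5 lists, with circles for TLR2 knockout mice, squares for wild-type mice and filled symbols for adjusted p under 0.05. In knockout mice Abcc4, Fgfr4 and Cyp7b1 lie at 2.06 or more and Abcg5, Abcg8, Abcc2 and Vdr at -3.39 or less, and no wild-type symbol is filled.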

How the data were processed

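The authors deposited log2 signals per probe set made with RMA, per the submitters' processing notes, with no version given. Total RNA was DNase-treated and, per the labels' protocols, labelled as cDNA with a kit that covers whole transcripts. The array's genome build is not given in the sources used here. Deposited were 35556 probe sets without missing values. Of these, 21218 had 1 symbol in the platform annotation, 1881 had several and 12457 had none. Each of 18820 genes was represented by its brightest probe set.

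All 12 arrays entered 1 limma 3.58.1 fit in R 4.3.3 (lmFit, eBayes) with a mean per group and 8 residual degrees of freedom. All p-values were adjusted by Benjamini-Hochberg across 18820 genes, and a gene rose or fell where its adjusted p was under 0.05. Values after ± are limma's standard errors for changes and SDs for group means. A gene's standard error uses 1 spread shared by the 4 groups. For Slc51a and Slc51b the SD was largest in treated knockout mice. Relative to the groups compared, their errors are thus wide in comparisons without that group and narrow in those with it. Precision is limited by the number of arrays. In a simulated table of 18820 genes with independent normal noise, 100 genes were changed by 1 and 100 by 2 on the log2 scale. For methotrexate in knockout mice 81 and 99 of these were recovered, and for the interaction 62 and 93. Unchanged genes called numbered 8 and 7 in the same order. In the data a far larger share of genes was called (34.8% for methotrexate in knockout mice). These rates thus do not describe the test as applied to the data.

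Members and gene lists were chosen with earlier results of these data known. Named from each other list were at most 4 genes with the smallest p in the contrast with most calls, plus Gata4, Hnf4a, Nr5a2, Rxra, Fgfr4, Klb, Cyp27a1, Abcc2, Abcc3 and Gpbar1, and for each member the 3 most correlated genes. The hepatocyte list had 1 of 8 genes higher and 1 lower in knockout mice after methotrexate, and the acinar list had 0 of 10 called. Over all genes 34.8% were called there. Listed genes without a probe set of 1 symbol were not analysed here. Deviations from group means of same-numbered arrays correlated at 0.29 to 0.50 between treated and untreated knockout mice. Between the untreated genotypes they correlated at 0.50 to 0.67. In these groups arrays numbered 1 lacked pancreatic RNA and those numbered 2 and 3 held it, so pairing by number and pancreatic RNA cannot be told apart. The correlations were of mixed sign in wild-type mice (-0.49 to 0.53) and between treated genotypes (-0.15 to 0.25). The main fit did not pair arrays, and the replicate number entered only as a block in an alternative fit. Alternatives were other normalisations, filters, probe set rules, variance models, blocks, array weights and leaving out each array. Fits on only the arrays with, or only those without, pancreatic RNA were added after seeing the data.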

Additional observations from a re-analysis of the deposited data

Results flagged for a closer look

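The effect of methotrexate differed between genotypes by the interaction test for 2 members and for 17 of the other bile acid genes named. Over all genes 23.8% were called in the interaction. Most of these other genes were named for a small p in comparisons that share the treated knockout arrays. Their count was thus largely set by that choice and is no result about the 37 measured. Each value is the knockout change less the wild-type change, on the log2 scale. For the exporter subunits it was -3.88 (Slc51a) and -3.94 (Slc51b). Among transporters it was -3.55 for Abcc2, -3.25 for Abcg5, -3.30 for Abcg8 and 2.21 for Abcc4. For sensors and regulators it was -3.29 (Vdr), -2.53 (Nr1i2), -1.53 (Gata6), -1.47 (Gata4), -1.55 (Hnf4a) and 0.79 (Gpbar1). The FGF15 receptor gene Fgfr4 had 2.33. In bile acid synthesis it was 1.68 for Cyp7b1, -1.72 for Amacr and -1.44 for Scp2, and among FXR targets -3.06 for Il18, 1.14 for Sdc1 and 1.59 for Car12. The adjusted p-values ran from 4.39e-06 (Amacr) to 0.0432 (Gpbar1). The difference for Gpbar1 did not pass with the replicate number as a block (adjusted p = 0.0580), with pancreatic RNA as a block (0.0528), in the 5 arrays without pancreatic RNA (0.06, adjusted p = 0.917) and in 9 fits that left out 1 array, and that of Car12 in 7 such fits.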

How the results depend on the processing

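Slc51a and Slc51b kept their direction and their calls for methotrexate in knockout mice, for treated genotypes and for the interaction in all 24 other fits run, with changes in knockout mice from -5.04 to -3.50 and from -5.89 to -3.47. Members called for methotrexate in knockout mice numbered 3, with 5 under array weights, 2 with a log2 fold of at least 1 and 2 to 4 with 1 array left out. Of all 18820 genes, 6549 were called there in the main fit, 9110 under array weights and 6455 with the replicate block. The 5 members under array weights thus came with more calls over all genes. The interaction had 2, with 4 when pancreatic RNA was a block, 2 with the replicate block and 2 to 3 with 1 array left out. Over all genes it had 4479 in the main fit, 4754 with pancreatic RNA as a block and 4486 with the replicate block. Treated genotypes had 3 with each single array left out, 4 with pancreatic RNA as a block and in the 7 arrays with it, Nr0b2 being the addition, and 3 in the 5 arrays without it, where Nr0b2 passed (-3.15, adjusted p = 0.00045) and Nr1h4 did not. They had 2 with a log2 fold of at least 1. Over all genes, treated genotypes had 6948 calls in the main fit and 6972 with pancreatic RNA as a block. Methotrexate in wild-type mice and the untreated genotypes had 0 members called in all fits. With the replicate number as a block 4 members were called for methotrexate in knockout mice, Nr0b2 being the addition, and it changed no other call of a member.

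All changes of sign concerned member values that did not pass. Centring on the array median gave Fabp6 -0.01 in knockout mice and -0.04 in wild-type mice and Fgf15 -0.03 in wild-type mice after methotrexate, with Fgf15 in knockout mice passing (-0.45, adjusted p = 0.0480). Quantile normalisation gave 0.02 for Slc10a2 and -0.03 for Nr1h4 in wild-type mice. Array weights gave -0.02 for Fabp6 and -0.15 for Fgf15 in wild-type mice, 0.07 for Nr1h4 between untreated genotypes and 0.02 for the interaction of Slc10a2. Pancreatic RNA as a block gave 0.41 for Nr0b2 and -0.03 for Fgf15 in wild-type mice. The 7 arrays with pancreatic RNA gave -0.01 for Nr1h4 in wild-type mice, -0.18 for Fgf15 between treated genotypes and -0.02 for the interaction of Fabp6. The 5 arrays without it gave 0.12 for Slc10a2 and -0.04 for Fabp6 in knockout mice, 0.10 for Slc10a2, -0.08 for Fabp6, 0.07 for Slc51a and 0.45 for Nr0b2 in wild-type mice, -0.24 for Nr0b2 between untreated genotypes and 0.02 for the interaction of Slc10a2. The cause was not tested.

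With 1 array left out, changes in knockout mice ran from -0.27 to 0.04 for Slc10a2 and from -0.03 to 0.09 for Fabp6. In wild-type mice they ran from -0.04 to 0.03 for Fabp6, -0.04 to 0.20 for Nr1h4, -0.48 to 0.13 for Nr0b2 and -0.06 to 0.10 for Fgf15. Between treated genotypes Fgf15 ran from -0.05 to 0.12. Between untreated genotypes Nr1h4 ran from -0.14 to 0.09 and Nr0b2 from -0.21 to 0.73. The interaction ran from -0.22 to 0.08 for Slc10a2 and -0.04 to 0.09 for Fabp6. The 3 members with mean signals below the 25th percentile (3.22), Slc10a2, Fabp6 and Fgf15, had no value when dim genes were left out, and little can be read from signals so near the bottom of the range.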
